A study of Mus musculus with 12 samples.

Results

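The nuclear genes for subunits of the mitochondrial respiratory chain and of ATP synthase were followed in the calvaria of 12 newborn mice. A gene was counted as a member when its mouse symbol was that of a subunit of complex I (Nduf genes with the letters a, b, c, s or v), complex II (Sdha to Sdhd), complex III (Uqcr genes), complex IV (Cox4 to Cox8 genes) or ATP synthase (Atp5 genes). This gave 85 of the 23715 genes measured, of which 38 belonged to complex I, 4 to complex II, 8 to complex III, 18 to complex IV and 17 to ATP synthase. The Cox6a2, Cox7a1 and Cox8b genes, the muscle isoforms of complex IV, were treated apart from the other 82 members. Subunits encoded by the mitochondrial genome and the protein-coding genes Ndufb1, Ndufb4b and Ndufb4c were not analysed here.

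The respiratory chain passes electrons from NADH (complex I) and succinate (complex II) through complex III to cytochrome c oxidase (complex IV), which hands them to oxygen, and ATP synthase uses the proton gradient built on the way. Most subunits are made in every cell with mitochondria. Complex IV is an exception, since several of its small subunits come in pairs of isoforms, and contractile heart and skeletal muscle cells use Cox6a2, Cox7a1 and Cox8b where most other cells use Cox6a1, Cox7a2 and Cox8a.

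The study compared 2 sets of C57BL/6 mice, 3 mice in each group, 1 library from each. In the first set, P-KO mice lacked Med23, a subunit of the Mediator complex, in mesenchymal stem cells, through a floxed allele (exons 5 to 7) and Prx1-Cre, and P-Ctrl mice were littermates whose genotype is WT in the labels and Med23fl/fl in the study's methods. In the second set, R-Het mice carried 1 inactive germline copy of Runx2, which encodes the main transcription factor of osteoblasts, and R-WT mice were wild-type. The tissue is calvaria of newborns in the labels and parietal bone at postnatal day 2 in the methods. Prx1-Cre acts in limb and craniofacial mesenchyme, so other cells of the tissue keep Med23.

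The values were FPKM, which count fragments relative to transcript length and library size, summed over the transcripts of a gene, and depth was estimated from the smallest values at roughly 7900000 to 11600000 fragments per library. Neither targeted gene separated the groups of its own set. Med23 ranged from 4.54 to 5.99 FPKM in P-Ctrl and from 4.89 to 5.74 FPKM in P-KO (log2 fold change 0.0012, SE 0.12, limma adjusted p = 0.997), and Runx2 from 27.3 to 37.7 FPKM in R-WT and from 30.4 to 35.7 FPKM in R-Het (log2 fold change 0.09, SE 0.13, limma adjusted p = 0.796). In the first set Runx2 was lower in every P-KO mouse (23.7 to 28.7 FPKM) than in every P-Ctrl mouse (30.5 to 38.0 FPKM), as were 7.68% of all tested genes. Its log2 fold change there was -0.40 (SE 0.12, limma adjusted p = 0.127). A value over the whole Med23 transcript need not show a deletion of a few exons in some of the cells. How the Runx2 copy was inactivated is not given in the study's methods. These values therefore leave the labels unchecked, and groups are named below as the libraries were labelled. Xist was above 1 FPKM in 3 libraries, P-Ctrl 2, P-Ctrl 3 and R-WT 1, so sexes were uneven between the groups. Osteoblast markers were abundant in every library, and the skeletal muscle markers, which vary between libraries of every group, are given beside the results they move with.

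The subunit genes were among the most abundant of the tissue. Without the muscle isoforms they held between 3.83% and 4.76% of a library's summed FPKM. By mean FPKM over the 12 mice, a value per length, the leading genes were Cox7c (1748 FPKM) for complex IV and Atp5e (1711 FPKM) for ATP synthase. For complex III it was Uqcrh (1293 FPKM), the hinge protein, and for complex II Sdhd (203 FPKM), a membrane anchor. For complex I it was Ndufa4 (1196 FPKM), which was placed there by its symbol although it is counted as a subunit of complex IV. Of the 85 members, 82 reached 1 FPKM in at least 3 mice and were tested. The others were the transcribed pseudogene Ndufs5-ps and the complex IV paralogs Cox7b2 and Cox8c, which are known from testis. Cox8c was listed at 0 in all 12 mice, and Cox7b2 was above 0 in P-KO 2 (0.684 FPKM) and R-Het 2 (0.591 FPKM) and listed at 0 in the other mice.

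The muscle isoforms fell in the libraries labelled R-Het. Cox6a2 had 79.5, 56.2 and 170.4 FPKM in the R-WT mice and 3.64, 5.43 and 0 FPKM in the R-Het mice, in replicate order. Cox7a1 had 65.0, 38.9 and 141.6 FPKM in R-WT and 6.90, 13.9 and 14.5 FPKM in R-Het. Cox8b had 143.8, 98.3 and 375.9 FPKM in R-WT and 15.97, 8.02 and 2.61 FPKM in R-Het. For each of these genes every R-Het mouse lay below every R-WT mouse, which held for 10.4% of all tested genes. The highest value was that of R-WT 3.

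On the log2(FPKM + 1) scale the log2 fold changes in R-Het were -4.90 for Cox6a2 (SE 0.68, limma adjusted p = 0.0194), -4.42 for Cox8b (SE 0.62, adjusted p = 0.0197) and -2.56 for Cox7a1 (SE 0.45, adjusted p = 0.0372), adjusted over the 13059 genes tested. They were the members called lower, 3 of 82, where 1.49% of all tested genes were called lower. No member was called higher, against 0.398% of all genes, and 1 member, Ndufa4l2, was higher at an unadjusted limma p under 0.05. The calls depended on single libraries. Without R-WT 1, which had Xist, adjusted p was 0.0658 for Cox6a2, 0.124 for Cox7a1 and 0.0656 for Cox8b, and without R-WT 3 it was 0.0608 for Cox6a2 and Cox7a1 and 0.0468 for Cox8b. Without R-Het 1, Cox6a2 (adjusted p = 0.0509) and Cox7a1 (adjusted p = 0.105) lost the call, and Cox7a1 also lost it without R-Het 2 (adjusted p = 0.0726) or R-Het 3 (adjusted p = 0.0714). Without R-Het 3, the library in which Cox6a2 was listed at 0, its log2 fold change was -4.08 (adjusted p = 0.0232). Over these fits the log2 fold changes stayed between -5.42 and -4.08 for Cox6a2, between -4.94 and -3.83 for Cox8b and between -2.99 and -2.07 for Cox7a1.

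In the libraries labelled P-KO the same genes had log2 fold changes above 0 that did not pass the test. Cox6a2 had 47.5, 1.96 and 10.9 FPKM in P-Ctrl and 113, 14.1 and 89.3 FPKM in P-KO. Cox7a1 had 36.6, 17.5 and 20.2 FPKM in P-Ctrl and 83.8, 32.5 and 57.2 FPKM in P-KO. Cox8b had 70.5, 2.79 and 23.1 FPKM in P-Ctrl and 208, 13.5 and 89.1 FPKM in P-KO. P-KO 1 and P-KO 3 lay above all controls for each gene, P-KO 2 lay below P-Ctrl 1, and the groups overlapped. The log2 fold changes were 2.17 for Cox6a2 (SE 1.10, limma adjusted p = 0.302), 1.80 for Cox8b (SE 1.24, adjusted p = 0.443) and 1.16 for Cox7a1 (SE 0.37, adjusted p = 0.146). Against P-Ctrl 1 alone, with P-Ctrl 2 and P-Ctrl 3 left out for Xist, the log2 fold changes were -0.14 for Cox8b, 0.15 for Cox6a2 and 0.55 for Cox7a1. Leaving out 1 mouse at a time gave values from 0.65 to 2.88 for Cox8b, 1.16 to 3.18 for Cox6a2 and 0.85 to 1.52 for Cox7a1. Those of Cox8b and Cox6a2 were lowest without P-Ctrl 2, and Cox8b also moved by more than 1.5 times without P-Ctrl 1 (2.77), P-KO 1 (0.95) or P-KO 2 (2.88). Of the 82 members tested, limma called 0 higher and 0 lower in P-KO, where 1.01% of all genes were called higher and 0.559% lower.

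**Figure D1:**
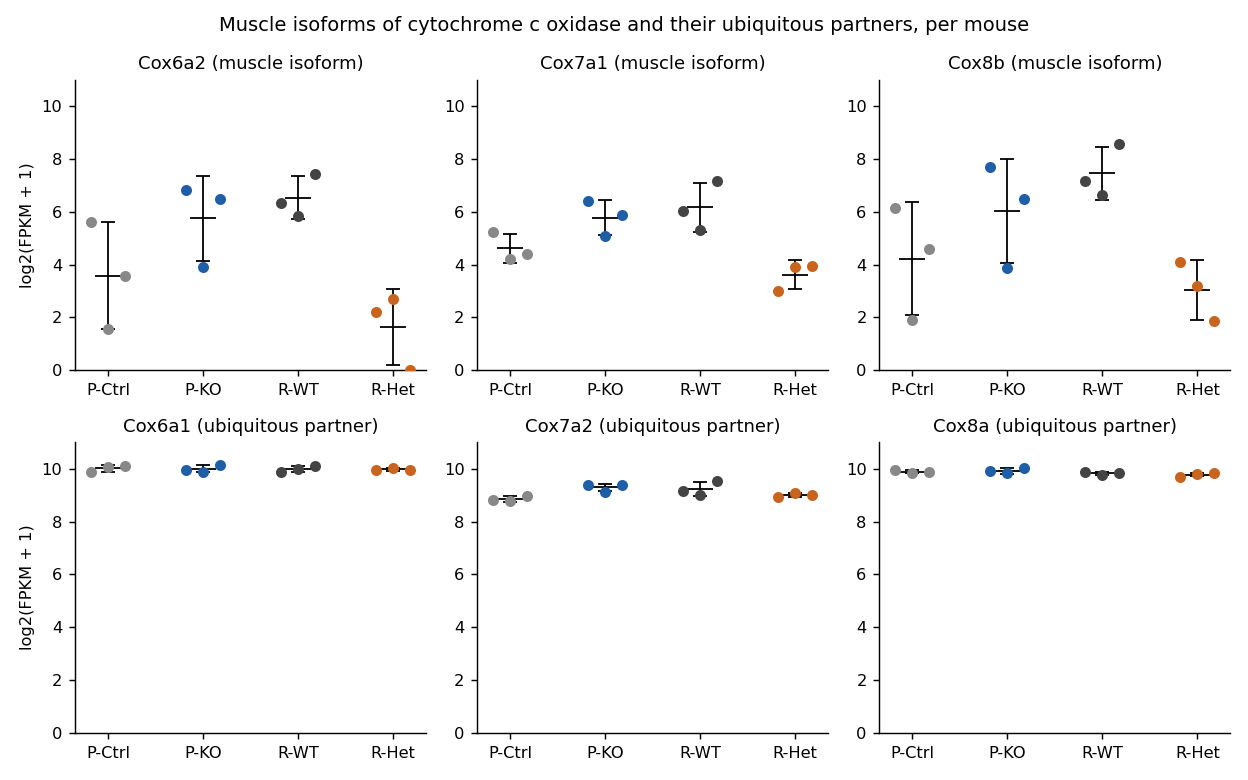
Level of the muscle isoforms Cox6a2, Cox7a1 and Cox8b (upper row) and their ubiquitous partners Cox6a1, Cox7a2 and Cox8a (lower row) as log2(FPKM + 1), 1 point per mouse in replicate order, with the mean and SD of 3 mice per group in black. The muscle isoforms spread widely among P-Ctrl and P-KO mice and are lower in all 3 R-Het mice than in all 3 R-WT mice, whereas Cox6a1 and Cox8a lie at nearly the same level in the 12 mice.

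The change differed between the sets by 7.07 for Cox6a2 (SE 1.47), 6.22 for Cox8b (SE 1.57) and 3.72 for Cox7a1 (SE 0.67) on the log2 scale, P-KO minus R-Het. In the interaction contrast over 12 mice adjusted p was 0.0676, 0.0943 and 0.0573, above the threshold of 0.05. Limma called 0 of the 82 members for this difference, against 0.153% of all genes. At an unadjusted p under 0.05 there were 56 members, against 15.3% of all genes.

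The ubiquitous partners stayed far more abundant. Cox6a1 lay between 936.1 and 1131 FPKM and Cox8a between 835.3 and 1055 FPKM in all 12 mice, and log2 fold changes were -0.02 (SE 0.11) and 0.03 (SE 0.09) in P-KO and -0.01 (SE 0.10) and -0.06 (SE 0.09) in R-Het, with limma adjusted p between 0.821 and 0.966. Cox7a2, by contrast, had 453, 434.9 and 505.9 FPKM in P-Ctrl and 666.7, 558.8 and 662.9 FPKM in P-KO, with all P-KO mice above all P-Ctrl mice (log2 fold change 0.44, SE 0.11, limma adjusted p = 0.0895), and 578.8, 511.1 and 734 FPKM in R-WT and 485.8, 548.3 and 509.3 FPKM in R-Het (log2 fold change -0.23, SE 0.14, adjusted p = 0.505).

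As a share of each isoform pair, Cox6a2 made up 8.84% ± 4.25 (SD, n = 3) of Cox6a1 and Cox6a2 together in R-WT, and 0.366%, 0.515% and 0% in the R-Het mice. Cox7a1 made up 11.1% ± 4.64 of its pair with Cox7a2 in R-WT and 2.22% ± 0.721 in R-Het. Cox8b made up 17.4% ± 10.2 of its pair with Cox8a in R-WT and 1.02% ± 0.802 in R-Het. All 3 shares were lower in every R-Het mouse than in every R-WT mouse (exact two-sided permutation test, p = 0.1 for each, which is the smallest p that 3 mice against 3 allow). In P-KO the shares were 6.32% ± 4.44, 8.20% ± 2.84 and 9.04% ± 8.27 for Cox6a2, Cox7a1 and Cox8b, against 1.99% ± 2.47, 5.06% ± 2.09 and 3.10% ± 3.21 in P-Ctrl, and the groups overlapped (exact two-sided permutation p = 0.2, 0.2 and 0.3).

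All 3 muscle isoform genes lie on chromosome 7 of GRCm38, Cox7a1 at chr7:30184171-30186030, Cox6a2 at chr7:128205435-128206366 and Cox8b at chr7:140898942-140900446, and are therefore far apart. Promoters of Cox8b and Cox7a1, of their partners Cox8a and Cox7a2, and of Cox6a1 are shown because the isoforms of a pair had unlike patterns. They span 250 bases before to 50 bases after the transcription start and come from RefSeq (build GRCm38.p6), which gave an entry for 68 of the 85 members, with none for Cox6a2. Capitals mark matches on both strands to CATGCGC, the core of the site of nuclear respiratory factor NRF1, CCGGAAG for ETS factors such as GABPA, AANATGGCG for YY1, AAGGTCA for oestrogen-related receptors, CAGCTG for the E-box of muscle regulatory factors, and the MEF2 site. The letters TGTGGT of RUNX factors and GGGCGG of Sp1 were searched as well and have no capitals.
Cox8b, chr7:140900397-140900696, minus strand: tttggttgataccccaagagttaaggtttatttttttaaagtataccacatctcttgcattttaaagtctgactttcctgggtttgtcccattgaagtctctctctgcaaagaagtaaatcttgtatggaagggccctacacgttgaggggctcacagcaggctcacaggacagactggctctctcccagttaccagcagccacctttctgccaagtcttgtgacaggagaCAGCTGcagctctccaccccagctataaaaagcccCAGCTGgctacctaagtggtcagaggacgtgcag
Cox8a, chr19:7217567-7217866, minus strand: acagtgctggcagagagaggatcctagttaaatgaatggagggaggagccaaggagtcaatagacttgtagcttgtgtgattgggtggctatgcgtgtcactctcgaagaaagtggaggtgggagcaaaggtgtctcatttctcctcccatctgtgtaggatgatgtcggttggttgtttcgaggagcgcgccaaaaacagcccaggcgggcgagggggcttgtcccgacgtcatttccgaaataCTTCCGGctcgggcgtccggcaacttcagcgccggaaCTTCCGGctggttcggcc
Cox7a1, chr7:30183921-30184220, plus strand: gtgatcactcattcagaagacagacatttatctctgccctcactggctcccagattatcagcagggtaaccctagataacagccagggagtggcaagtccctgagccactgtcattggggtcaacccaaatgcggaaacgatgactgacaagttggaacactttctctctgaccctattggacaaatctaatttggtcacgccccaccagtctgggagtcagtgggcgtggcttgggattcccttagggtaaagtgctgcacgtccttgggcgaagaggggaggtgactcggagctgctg
Cox7a2, chr9:79759804-79760103, minus strand: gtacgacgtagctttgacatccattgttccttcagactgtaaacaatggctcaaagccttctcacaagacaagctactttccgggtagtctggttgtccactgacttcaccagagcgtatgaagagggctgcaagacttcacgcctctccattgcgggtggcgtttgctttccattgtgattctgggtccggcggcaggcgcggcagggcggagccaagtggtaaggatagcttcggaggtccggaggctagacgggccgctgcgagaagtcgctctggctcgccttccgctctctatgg
Cox6a1, chr5:115348909-115349208, minus strand: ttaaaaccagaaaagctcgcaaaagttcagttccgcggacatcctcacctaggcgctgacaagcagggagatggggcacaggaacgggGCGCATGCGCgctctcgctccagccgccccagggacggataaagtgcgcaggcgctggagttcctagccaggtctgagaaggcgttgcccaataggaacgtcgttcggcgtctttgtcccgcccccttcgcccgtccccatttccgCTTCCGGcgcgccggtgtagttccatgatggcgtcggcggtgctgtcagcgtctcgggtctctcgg
The Cox8b window held 2 E-boxes CAGCTG, 1 RUNX match and none of the other letters. The Cox8a window held 2 ETS matches, the Cox6a1 window held the NRF1 core on both strands of 1 stretch 1 ETS match and 2 Sp1 matches, the Cox7a2 window held 1 Sp1 match and no other, and the Cox7a1 window held none of the letters searched. Of 71 promoters of the members without muscle isoforms, 18.3% held the NRF1 letters, against 3.91% of all 32851 promoters of the same length, 23.9% the ETS letters, against 8.86%, 14.1% the YY1 letters, against 2.38%, and 11.3% the receptor letters, against 4.72%. CAGCTG was found in 7.04% of them, against 16.3% of all promoters, and the MEF2 site in 0%, against 3.19%. TGTGGT was found in 8.45%, against 16.8%, and GGGCGG in 40.9%, against 35.7%. These shares describe the letters in these windows and were not compared with the expression values.

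Among the members without muscle isoforms, none passed the test in P-KO, yet nearly all had log2 fold changes above 0. Of 79 such members tested, 71 had a value above 0 and 8 below, with a median of 0.24, where 61.3% of all tested genes were above 0 and their median was 0.06. With every library rescaled to the same summed FPKM the median of the 79 was 0.14 and that of all genes -0.03, and with scaling by the median ratio they were 0.16 and -0.0031. At an unadjusted limma p under 0.05, 39 of the 79 were higher and 0 lower, against 15.7% and 5.63% of all genes. All P-KO mice lay above all P-Ctrl mice for 42 of the 79, against 19.6% of all genes, and the reverse held for 0, against 7.68%.

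The largest log2 fold change of complex I in P-KO was that of Ndufb2, an accessory subunit, with 315.6, 333.1 and 351.2 FPKM in P-Ctrl and 497.3, 414.5 and 498.1 FPKM in P-KO (0.49, SE 0.10, limma adjusted p = 0.0644). Ndufa4 had 955.1, 977.6 and 1099 FPKM in P-Ctrl and 1560, 1218 and 1341 FPKM in P-KO (0.44, SE 0.12, adjusted p = 0.109). For both genes the groups were apart. In complex I as a whole, 34 of 37 tested members were above 0, with a median of 0.21. In complex III all 8 were above 0 (median 0.31), led by Uqcrb, the ubiquinone-binding protein, with 722.4, 735.6 and 795.3 FPKM in P-Ctrl and 1046, 930.4 and 1086 FPKM in P-KO (0.44, SE 0.10, adjusted p = 0.0723). Uqcrh had a log2 fold change of 0.31 (SE 0.12, adjusted p = 0.196).

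In ATP synthase all 17 members were above 0 in P-KO (median 0.31). Atp5md, a small membrane subunit also called DAPIT, had 1294, 1348 and 1397 FPKM in P-Ctrl and 2088, 1761 and 2002 FPKM in P-KO (0.53, SE 0.10, limma adjusted p = 0.0542), and the groups were apart. Atp5e, the epsilon subunit, had 1425, 1499 and 1701 FPKM in P-Ctrl and 1959, 1470 and 1895 FPKM in P-KO (0.20, SE 0.14, adjusted p = 0.454), and the groups overlapped. In complex IV 9 of 13 members were above 0, with a median of 0.15. Cox7c had 1424, 1414 and 1474 FPKM in P-Ctrl and 2093, 1799 and 2134 FPKM in P-KO (0.48, SE 0.10, adjusted p = 0.0678). Cox7b, which is X-linked and was picked after its values were seen, came closest to the threshold, with 294.6, 266 and 301.7 FPKM in P-Ctrl and 439, 377.1 and 450.7 FPKM in P-KO (0.55, SE 0.10, adjusted p = 0.0502). In complex II 3 of 4 members were above 0 (median 0.17), and Sdhd, with 209.7, 173.2 and 194.3 FPKM in P-Ctrl and 230.4, 221.1 and 212.4 FPKM in P-KO, had the largest value (0.20, SE 0.09, adjusted p = 0.264).

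In R-Het the same members lay mostly below 0. Of the 79, 73 had log2 fold changes below 0 and 6 above, with a median of -0.17, where 56.1% of all tested genes were above 0 and their median was 0.02. None of the 79 passed the test. At an unadjusted limma p under 0.05, 10 of the 79 were lower and 1 higher, against 8.32% and 7.09% of all genes. All R-Het mice lay below all R-WT mice for 21 of the 79, against 10.4% of all genes, and above them for 1, against 10.7%. Without R-WT 3 the median was -0.08, with 67 of 79 below 0, and without R-WT 2 it was -0.26, with 76 below 0, each a move of more than 1.5 times. Rescaled to the same summed FPKM, it was -0.13 (all genes 0.06).

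By complex, the median log2 fold change in R-Het was -0.15 for complex I, -0.21 for complex II, -0.25 for complex III, -0.16 for complex IV and -0.22 for ATP synthase. The lowest median was that of complex III, where all 8 members were below 0 and Uqcrfs1, the Rieske iron-sulphur protein, had 122.7, 119.2 and 150.1 FPKM in R-WT and 98.8, 93.6 and 109.8 FPKM in R-Het (-0.37, SE 0.11, limma adjusted p = 0.172). Sdhb, the iron-sulphur subunit of complex II, had 183.4, 163 and 208.3 FPKM in R-WT and 143.9, 156.5 and 133.3 FPKM in R-Het (-0.35, SE 0.11, adjusted p = 0.189). Both genes had all R-Het mice below all R-WT mice. All 4 members of complex II were below 0, and its summed FPKM was lower in each R-Het mouse (512 to 562 FPKM) than in each R-WT mouse (576 to 685 FPKM), whereas the sums of the other complexes overlapped between R-WT and R-Het.

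**Figure D2:**
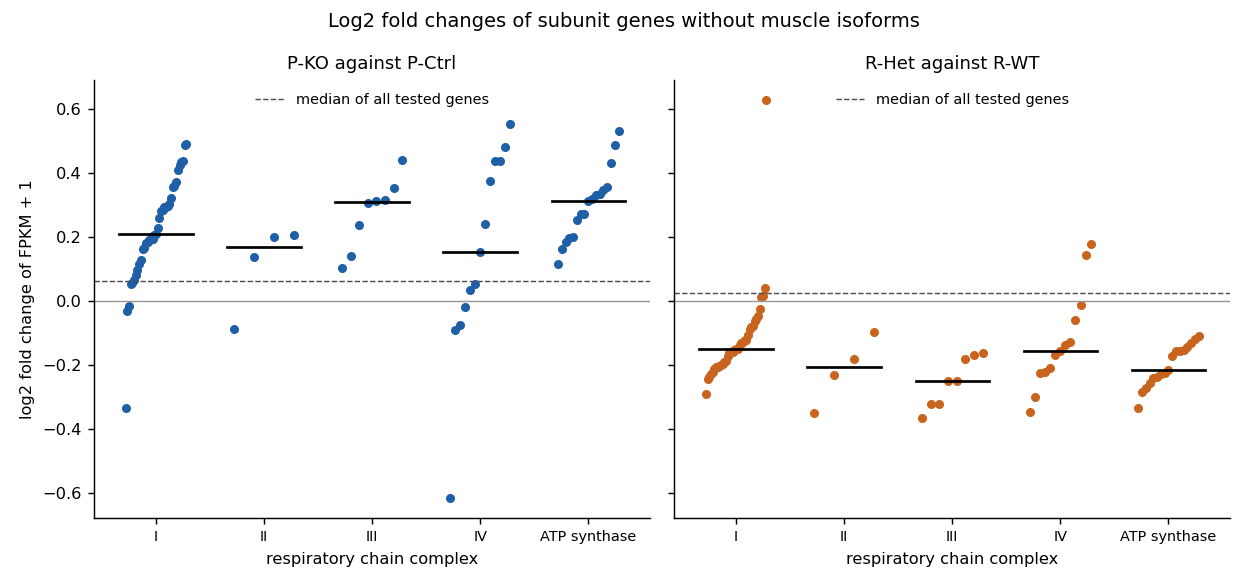
Log2 fold change of FPKM + 1 for each of 79 subunit genes without muscle isoforms, by complex, in P-KO against P-Ctrl (left) and R-Het against R-WT (right), with black bars at the median of each complex and a dashed line at the median of all tested genes. Medians by complex lie between 0.15 and 0.31 on the left and between -0.25 and -0.15 on the right; the point at 0.63 on the right is Ndufa4l2 and that at -0.61 on the left is Cox4i2.

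Summed over its genes without rescaling, the FPKM of each complex was higher in every P-KO mouse than in every P-Ctrl mouse. Complex I had 10550 ± 587 FPKM in P-Ctrl and 12700 ± 1232 FPKM in P-KO (SD, n = 3 each), a ratio of 1.20. The ratio was 1.11 for complex II, 1.26 for complex III, 1.21 for complex IV and 1.26 for ATP synthase. In R-Het the ratio to R-WT was 0.908, 0.853, 0.848, 0.883 and 0.867 in the same order. The summed FPKM of all genes was not equal between libraries. As a share of it, the members without muscle isoforms held 3.97% ± 0.0768 in P-Ctrl and 4.53% in P-KO, a ratio of 1.14, and the ratio in R-Het was 0.906. As such a share complex II overlapped between P-Ctrl and P-KO, the other complexes stayed apart, and in R-Het complexes II, III and IV lay below R-WT in every mouse. The summed values were pooled over genes of unequal abundance, and no test was run on them.

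**Figure D3:**
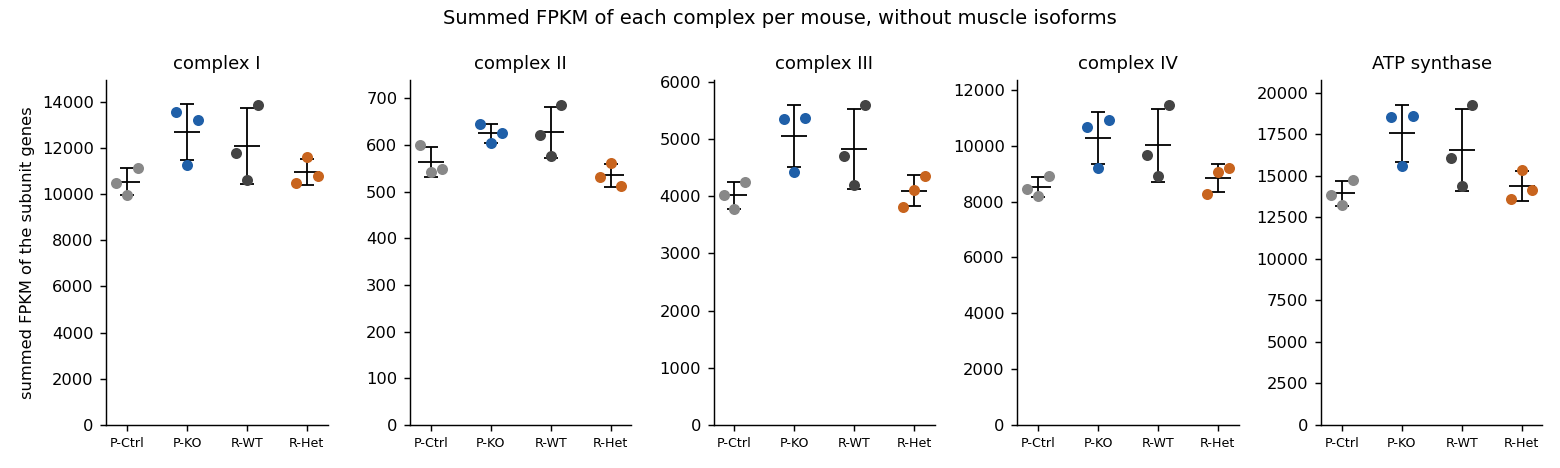
Summed FPKM of the subunit genes of each complex without muscle isoforms, 1 point per mouse in replicate order, with the mean and SD of 3 mice per group in black and each axis starting at 0. Libraries are not rescaled, and for all 5 complexes the 3 P-KO mice lie above the 3 P-Ctrl mice, and R-WT 3 has the highest value.

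Opposite values in both sets were frequent among the members. Of the 79, 68 had a log2 fold change above 0 in P-KO and below 0 in R-Het, against 24.2% of all tested genes. For 10 of the 79 the groups were apart in both sets, all P-KO mice above P-Ctrl and all R-Het mice below R-WT, against 0.865% of all genes. In the test of the difference the smallest p among the 79 belonged to Ndufa9, a subunit of complex I, with 97.0, 89.3 and 95.2 FPKM in P-Ctrl, 117, 112.2 and 113 FPKM in P-KO, 114.8, 96.4 and 123.8 FPKM in R-WT and 91.9, 95.0 and 85.4 FPKM in R-Het (difference 0.57, SE 0.13, limma adjusted p = 0.0745). Uqcrc2, a core protein of complex III, followed with a difference of 0.63 (SE 0.15, adjusted p = 0.0791). Ndufs4, an accessory subunit of complex I, had 58.8, 54.9 and 58.1 FPKM in P-Ctrl, 86.6, 69.3 and 78.0 FPKM in P-KO, 71.2, 65.4 and 79.8 FPKM in R-WT and 62.5, 69.7 and 60.8 FPKM in R-Het (difference 0.59, SE 0.14, adjusted p = 0.0806).

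Among the 3 genes for the c subunit of ATP synthase, which encode the same mature protein, Atp5g1 had the largest change of its complex in R-Het, with 270.3, 269.3 and 346.7 FPKM in R-WT and 239.7, 262.7 and 200 FPKM in R-Het (-0.33, SE 0.14, limma adjusted p = 0.311). In P-KO it had 328.8, 283.3 and 344.6 FPKM against 233.3, 261.5 and 254.9 FPKM in P-Ctrl (0.35, SE 0.10, adjusted p = 0.1203). The files hold 2 transcripts of Atp5g1, which were looked at after their values were seen. The transcript NM_001161419 had 144.1, 145.8 and 130.2 FPKM in P-Ctrl, 215.2, 164.3 and 209.6 FPKM in P-KO, 168.2, 157.2 and 230.8 FPKM in R-WT and 101.1, 137.6 and 85.2 FPKM in R-Het. It was apart between the groups in both sets. The transcript NM_007506 had 109.9 ± 18.5 FPKM in P-Ctrl, 122.5 ± 11.1 in P-KO, 110.1 ± 7.18 in R-WT and 126.2 ± 11.98 in R-Het (SD, n = 3 each), and its groups overlapped. The share of NM_001161419 in Atp5g1 was 62.4% ± 4.11 in R-WT and 45.7% ± 5.75 in R-Het, lower in each R-Het mouse (exact two-sided permutation p = 0.1, the smallest possible), and 56.2% ± 5.36 in P-Ctrl and 61.4% ± 3.77 in P-KO, with overlap (exact p = 0.3). How fragments common to both transcripts were divided is not given in the sources used here. Atp5g1 held between 10.5% and 13.7% of the FPKM of the c subunit genes Atp5g1, Atp5g2 and Atp5g3 in all 12 mice, with overlap between the groups in both sets.

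**Figure D4:**
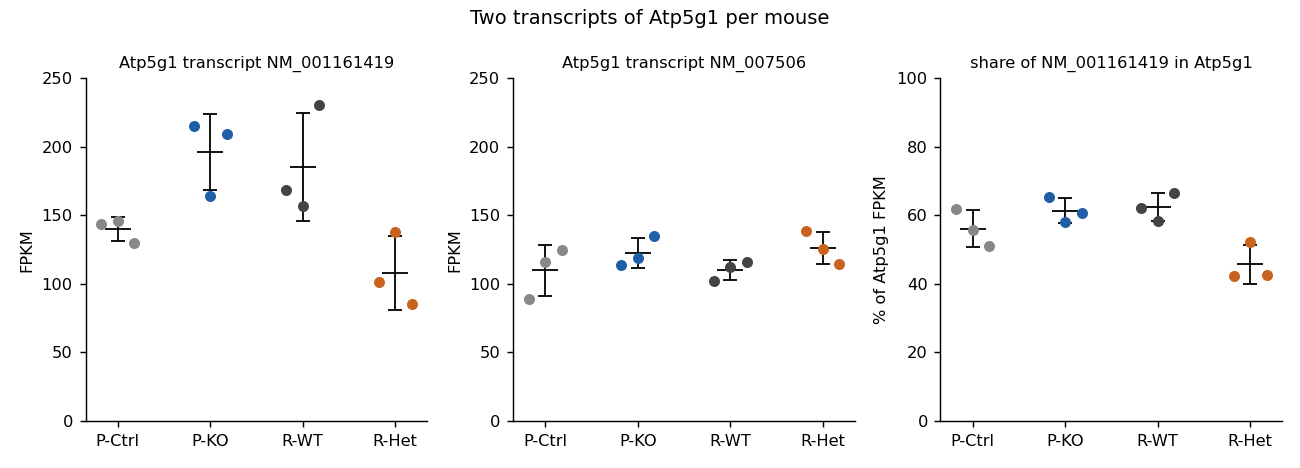
FPKM of the Atp5g1 transcripts NM_001161419 (left) and NM_007506 (middle) and the share of the former in percent of Atp5g1 FPKM (right), 1 point per mouse in replicate order, with the mean and SD of 3 mice per group in black. The left transcript lies between 85.2 and 137.6 FPKM in R-Het and between 157.2 and 230.8 FPKM in R-WT, and the middle transcript overlaps in both sets.

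Paralogs restricted to certain tissues or states were looked at one by one. Ndufa4l2, a paralog of Ndufa4 known as induced in low oxygen, had 35.0, 51.0 and 42.3 FPKM in R-WT and 63.5, 81.2 and 55.3 FPKM in R-Het, with all R-Het mice above all R-WT mice (log2 fold change 0.63, SE 0.17, limma adjusted p = 0.127). In P-KO its log2 fold change was -0.33 (SE 0.27, adjusted p = 0.514). Cox4i2, the paralog of Cox4i1 known from lung and smooth muscle, had 9.65, 19.0 and 15.6 FPKM in P-Ctrl and 9.61, 6.44 and 11.5 FPKM in P-KO (-0.61, SE 0.27, adjusted p = 0.244), and 0.18 (SE 0.24, adjusted p = 0.783) in R-Het. Cox6b2, known from testis, lay between 25.3 and 48.3 FPKM in all 12 mice, with log2 fold changes of -0.09 (SE 0.17, adjusted p = 0.800) in P-KO and 0.14 (SE 0.13, adjusted p = 0.648) in R-Het. The direction of Ndufa4l2 and of Cox6b2 in P-KO was not kept in every alternative fit.

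The genes most like the muscle isoforms over the 12 mice were mostly genes of contractile muscle. By Pearson correlation of log2(FPKM + 1), a description over 12 mice of 4 groups, Cox6a2 was closest to Tnnc2 (0.985) and Tnni2 (0.984), troponins of fast muscle fibres, and to Cacng1 (0.983), a subunit of the muscle calcium channel. Cox8b was closest to Mb, which encodes myoglobin (0.989), Tceal7 (0.973) and Tnni2 (0.970), and Cox7a1 to Fbp2, the muscle fructose bisphosphatase (0.957), Vdac1, a channel of the outer mitochondrial membrane of all cells (0.954), and Atcayos (0.951), a transcript opposite to Atcay whose reads cannot be told from those of Atcay without strand.

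The markers of skeletal muscle moved with these results. The 15 markers listed for this tissue, which include Acta1, Ckm and Mylpf, summed to between 32.6 and 1589 FPKM in P-Ctrl, 691 and 4774 FPKM in P-KO, 2184 and 6488 FPKM in R-WT and 35.7 and 217 FPKM in R-Het. In R-Het 12 of the 13 tested were called lower and 0 higher, against 1.49% and 0.398% of all genes, with a median log2 fold change of -4.04. Myl1 (-5.08), Tnnc2 (-5.18) and Ckm (-4.91), with limma adjusted p of 0.0300, 0.0448 and 0.0169, had the largest changes. In P-KO 0 of 13 were called, 5 were higher at an unadjusted limma p under 0.05, against 15.7% of all genes, and the median was 2.72. With the mean level of the markers as a covariate, the log2 fold changes in R-Het were 0.03 for Cox6a2, 0.05 for Cox8b and -1.61 for Cox7a1 (limma adjusted p = 0.993, 0.989 and 0.768). In P-KO the covariate turned Cox6a2 to -0.46 and Cox8b to -1.13, while Cox7a1 stayed above 0. In these bulk samples fewer cells of a type and less RNA per cell cannot be told apart. Of the 5 heart markers listed, Myh6, Myl7 and Nppa stayed under 1 FPKM in all 12 mice and Tnni3 lay between 1.23 and 3.29 FPKM. The fifth, Myl4, a myosin light chain of the atria and also of embryonic skeletal muscle, lay between 3.76 and 61.8 FPKM and fell in R-Het (-2.39, limma adjusted p = 0.00540), with all R-Het mice below all R-WT mice. The 5 brown fat markers stayed under 1 FPKM in all 12 mice and were not tested, and Ucp1 was listed at 0 in 11 of them. At these low values Cidea was higher in every P-KO mouse (mean 0.40 against 0.062 FPKM in P-Ctrl). It was lower in every R-Het mouse (mean 0.035 against 0.59 FPKM in R-WT). Adrb3 was higher in every mutant mouse of both sets, and the groups overlapped for Ucp1, Elovl3 and Ppara.

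The same markers ran beside the ubiquitous members too. The 3 mice with the highest marker sums, R-WT 3 (6488 FPKM), P-KO 1 (4774 FPKM) and P-KO 3 (3771 FPKM), were those with the highest summed FPKM of the members without muscle isoforms (50830, 48800 and 48740 FPKM). Among the other mice the order was shared only in part. R-WT 1 came next by both sums, with 2233 FPKM of muscle markers and 42860 FPKM of members. P-Ctrl 2 came last by both, with 32.6 FPKM and 35740 FPKM. Mice between them changed places. R-Het 2, with 182 FPKM of muscle markers, had 40690 FPKM of members, and R-WT 2, with 2184 FPKM of muscle markers, had 38660 FPKM of members. With the markers as a covariate the median log2 fold change of the 79 members in R-Het turned to 0.18, with 61 above 0 and 18 below. In P-KO it was 0.14, with 62 above 0 and 17 below. The median of all tested genes in these fits was 0.09 in R-Het and 0.06 in P-KO. The markers did not overlap between R-Het and R-WT, so in this set their level and the genotype cannot be told apart.

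**Figure D5:**
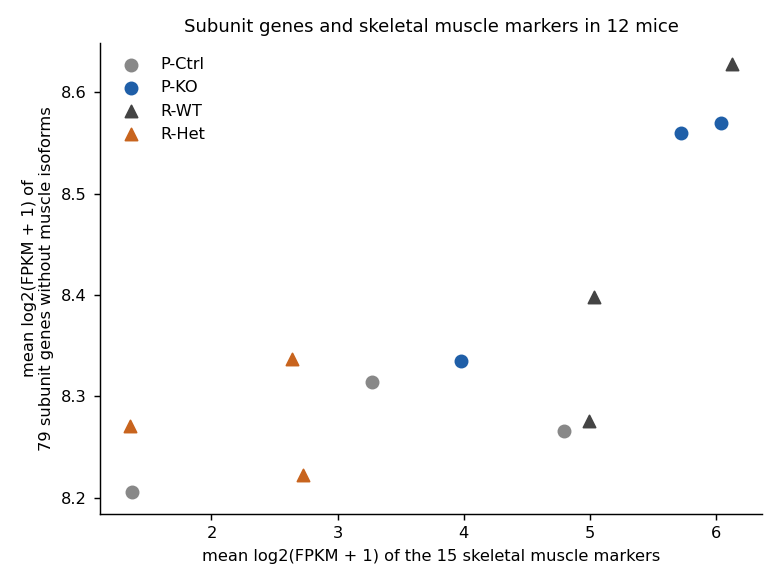
Mean log2(FPKM + 1) of 79 subunit genes without muscle isoforms against the mean log2(FPKM + 1) of 15 skeletal muscle markers, 1 point per mouse, circles for P-Ctrl and P-KO and triangles for R-WT and R-Het. The 3 mice on the far right, R-WT 3, P-KO 1 and P-KO 3, are the highest on the vertical axis, and the other 9 mice lie between 8.21 and 8.40.

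Osteoblast markers had high summed FPKM in every library. The 11 listed genes summed to between 47200 and 49870 FPKM in P-Ctrl, 21640 and 29840 FPKM in P-KO, 38110 and 43920 FPKM in R-WT and 26420 and 37330 FPKM in R-Het. Gene by gene, all 11 were below 0 in P-KO (median -0.53), whereas in R-Het 5 were above 0 and 6 below (median -0.04), and the mean of the most abundant, Spp1, was 17850 FPKM in R-WT and 10490 FPKM in R-Het. In P-KO 2 of the 11, the osteocalcin genes Bglap (-1.95, limma adjusted p = 0.0401) and Bglap2 (-1.77, adjusted p = 0.0327), were called lower, and in R-Het 0 were called, with 2 lower at an unadjusted limma p under 0.05. Over all tested genes 0.559% were called lower in P-KO and 1.49% in R-Het, and 5.63% and 8.32% were lower at the unadjusted p. Markers of osteoclasts, the cells that resorb bone, summed to between 4532 and 8129 FPKM in P-Ctrl, 4158 and 5259 FPKM in P-KO, 5134 and 6423 FPKM in R-WT and 3352 and 4183 FPKM in R-Het. In R-Het all 6 were lower in every mouse and at an unadjusted limma p under 0.05 (median -0.64), and Atp6v0d2 (-0.85, limma adjusted p = 0.0163) and Dcstamp (-0.98, adjusted p = 0.0185) were called, while in P-KO 0 were called and 0 had an unadjusted limma p under 0.05 (median -0.37). The erythroid markers summed to between 6312 and 9065 FPKM in P-Ctrl, 3590 and 5740 FPKM in P-KO, 7629 and 9272 FPKM in R-WT and 2026 and 7977 FPKM in R-Het. None was called in either set, but all 5 tested were lower in R-Het at an unadjusted limma p under 0.05 (median -1.08) and 2 in P-KO (median -0.43). The part of the content of these cells in the members' values was not tested beyond the muscle covariate above.

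Other genes of mitochondrial energy supply were counted beside the members. Of 7 electron carrier genes, all were above 0 in P-KO and below 0 in R-Het, and Cycs, which encodes somatic cytochrome c, rose in P-KO, from 62.8 to 94.6 FPKM in the group means (0.58, SE 0.09, limma adjusted p = 0.0377). It was the only one of the 7 called in either set (3 were lower in R-Het at an unadjusted limma p under 0.05). Of all tested genes, 1.01% were called higher in P-KO and 1.49% lower in R-Het. Of 18 genes of the citrate cycle and pyruvate dehydrogenase, 16 were above 0 in P-KO and 16 below 0 in R-Het, with medians of 0.17 and -0.20, and 0 were called (5 higher and 5 lower at an unadjusted limma p under 0.05). Over all tested genes 15.7% were higher in P-KO and 8.32% lower in R-Het at that p. Pdhx of pyruvate dehydrogenase and Sucla2 of succinyl-CoA ligase each had 0.35 in P-KO (limma adjusted p = 0.0906 and 0.0905).

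Assembly factors help to build the complexes and are not part of them. Of 47, 37 were above 0 in P-KO (median 0.16) and 22 in R-Het (median -0.01), and 0 were called in either set (15 higher and 1 lower in P-KO, 1 higher and 0 lower in R-Het at an unadjusted limma p under 0.05). Cox19, a copper chaperone of complex IV, had the highest value in P-KO, 0.50 (SE 0.11, limma adjusted p = 0.0694). The lowest was -0.87 for Pet117 (adjusted p = 0.223), which was listed at 0 in all P-KO mice and in P-Ctrl 2. In R-Het Pet117 had 0.66 (adjusted p = 0.583) through R-Het 1 alone. The regulators of these genes had medians of 0.02 and -0.05, with 0 of 13 tested called (2 higher and 1 lower in P-KO, 1 lower in R-Het at an unadjusted limma p under 0.05). Over all tested genes 15.7% were higher and 5.63% lower in P-KO at that p, and 7.09% and 8.32% in R-Het. The counts of the regulators in P-KO lay near these shares. Among the regulators Ppargc1b had the largest change in each set and was below 0 in both. Its values were -0.29 (limma adjusted p = 0.411) in P-KO and -0.40 (adjusted p = 0.297) in R-Het. Tfam, the packaging factor of mitochondrial DNA, had smaller changes, 0.25 (limma adjusted p = 0.206) in P-KO and -0.19 (adjusted p = 0.410) in R-Het.

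Mitochondrial carriers and import proteins had medians of 0.20 in P-KO and -0.06 in R-Het with 0 of 14 called (6 higher in P-KO and 4 lower in R-Het at an unadjusted limma p under 0.05), and genes of glycolysis 0.17 and -0.14 with 0 of 14 called (5 higher and 4 lower). At that p 15.7% of all tested genes were higher in P-KO and 8.32% lower in R-Het. Of 10 genes that supply energy in muscle, 4 were called lower in R-Het, against 1.49% of all tested genes. They were Pgam2 (-3.00, limma adjusted p = 0.0162), Mb (-3.35, adjusted p = 0.0263), Eno3 (-1.70, adjusted p = 0.0403) and Fabp3 (-1.45, adjusted p = 0.0403). These encode the muscle forms of phosphoglycerate mutase, enolase and fatty acid-binding protein, and myoglobin. In P-KO 0 of the 10 were called, and 9 were higher at an unadjusted limma p under 0.05.

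Members had short transcripts, with a median of 731 bases against 2832 bases over all tested genes. Over the 850 other tested genes with transcripts of 500 bases to under 1000 bases the median log2 fold change was 0.13 in P-KO and -0.03 in R-Het, and over the 45 members in this class it was 0.25 and -0.15. In the class from 1000 to under 2000 bases it was 0.09 and -0.01 over 2851 other genes and 0.20 and -0.22 over 19 members. Many members also have pseudogene copies, 17 of which matched the symbol rule in the reference gene table and were not analysed here, and how reads common to a gene and its copies were assigned is not given in the sources used here.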

How the data were processed

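RNA from the calvaria of 12 newborn mice, 3 per group, was sequenced by the authors (TruSeq kit, 1 library per mouse), and the submitters' processing notes name Bowtie 0.12.8 and mm10 with no further role. For every RefSeq transcript the authors deposited 1 value in each mouse, normalized to transcript length and library, whose unit is not given in the sources used here. The deposited values were read as FPKM, since they were not whole numbers, scaled with transcript length and summed to between 891329 and 1068933 per mouse. The program that estimated them is not given in the sources used here.

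Of 30411 transcripts, 29835 were matched to symbols by the RefSeq gene table of GRCm38.p6 and 180 by GENCODE M21, and 396 kept their identifier. FPKM values were summed per gene. The 13059 genes that reached 1 FPKM in 3 or more mice entered the test, on log2(FPKM + 1) with limma 3.58.1 (R 4.3.3, mean-variance trend) in a separate fit of 6 mice per set, with Benjamini-Hochberg adjustment at 0.05, and the difference between the sets by an interaction contrast over 12 mice. A fold change on this scale understates that of low genes. Isoform shares were compared by exact permutation. On simulated mice with 200 changed genes among the 13059 the fit of P-KO against P-Ctrl recovered 90.0% and the contrast 82.5%. Recovery at log2 fold changes as small as the medians of the 79 members, 0.24 in P-KO and -0.17 in R-Het, was not tested. Depth was estimated from values worth 1 fragment, and genes near 1 FPKM rest on few fragments. Tables and figures were made with Python 3.11.15, pandas 2.3.3, numpy 2.4.6 and matplotlib 3.10.9.

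The members and gene lists were chosen with earlier results of these data known. Genes named in the text are the muscle isoforms and their partners, members with an adjusted p under 0.05 (up to 10 per set and direction), the 5 with the smallest p for the difference, the most abundant member and that with the largest change of each complex, tissue-restricted paralogs, the 3 genes most like each muscle isoform, and up to 3 genes of other lists by size of change. Cox7b and the Atp5g1 transcripts were added after their values were seen. Library preparation batches are not given in the sources used here, so nothing was recomputed within batches, and p-values measure the spread between these mice.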

Additional observations from a re-analysis of the deposited data

Results flagged for a closer look

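In the report's comparisons 5 named subunit genes had all mice of P-KO above all of P-Ctrl and all mice of R-Het below all of R-WT. The same held for 10 of the 79 members without muscle isoforms and for 0.865% of all tested genes. These 5 had been named for a large change or a small p of the difference, so their separation follows in part from that choice. The difference of their log2 fold changes between the sets, P-KO minus R-Het, was 0.57 for Ndufa9, 0.63 for Uqcrc2, 0.44 for Sdhd, 0.55 for Sdhb and 0.68 for Atp5g1, and in the limma interaction contrast over 12 mice none passed the threshold (adjusted p = 0.0745, 0.0791, 0.173, 0.0971 and 0.110). The Atp5g1 transcript NM_001161419 moved in the same opposite ways, with a difference of 56.3 FPKM between P-KO and P-Ctrl and of -77.4 FPKM between R-Het and R-WT. For the transcript the difference between the sets was not tested.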

How the results depend on the processing

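Of the 25 named members, 23 were tested, and 46 log2 fold changes were recomputed under every alternative. Of the recomputed values, 579 kept their direction and their side of the threshold, 21 lost the call, 7 gained one and 37 changed sign. The counts of members called changed with the fit. With all 12 mice in one fit 5 members were higher in P-KO (Atp5md, Cox7b, Ndufa12, Ndufs4 and Uqcrb) and 1 lower in R-Het. Of the 13059 genes, this fit called 717 in P-KO and 95 in R-Het, in either direction. Without the filter on low values 0 were lower in R-Het, as with the skeletal muscle covariate and with the 3 libraries with Xist left out (P-Ctrl 2, P-Ctrl 3 and R-WT 1). Of all genes, 5, 1 and 34 were called in R-Het in these fits, in either direction. Leaving out 1 mouse at a time gave 0 to 3 members lower in R-Het and 0 to 4 whose change differed between the sets, the most without P-KO 2, and rescaling to the same sum gave 1 of the latter. Of all genes, 34 to 169 were called in R-Het with 1 mouse left out. The change of 164 differed between the sets without P-KO 2, and that of 37 after the rescaling. A pseudocount of 0.1 left 2 lower in R-Het and ended the call of Cox6a2 (adjusted p = 0.0723). The causes of these changes were not tested.

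With the replicate number as a block, 5 members were higher in P-KO (Atp5md, Cox6a2, Cox7a1, Cox7b and Cox8b), 1 lower in R-Het and 3 differed between the sets. Of the 13059 genes, 273, 90 and 136 were called in these comparisons, in either direction. The main fit took the numbers as no pairs, since the study's methods name an unpaired test. Deviations of libraries with the same number correlated by 0.18, 0.259 and 0.0527 in the first set and by 0.0048, -0.047 and -0.084 in the second. In the first set every library correlated best with that of its own number, a hint from the data and not from the design.

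Sign changes took in the large log2 fold changes of Cox6a2 and Cox8b in both sets as well as small ones. With the skeletal muscle covariate the values that changed sign were, in P-KO, Cox6a2 (-0.46), Cox8b (-1.13), Cox6a1 (0.022), Cox8a (-0.061), Ndufa4l2 (0.069) and Uqcrfs1 (-0.060), and, in R-Het, Cox6a2 (0.029), Cox8b (0.046), Cox6a1 (0.23), Cox7a2 (0.29), Ndufa9 (0.16), Ndufs4 (0.25), Ndufa4 (0.27), Sdhb (0.19), Atp5e (0.35), Atp5md (0.39) and Atp5g1 (0.53). Without the libraries with Xist they were Cox8b (-0.14), Cox6a1 (0.12), Cox8a (-0.037) and Ndufa4l2 (0.31) in P-KO and Ndufb2 (-0.059) in R-Het. Rescaling to the same sum gave Cox8a -0.072 in P-KO and Cox6a1 0.024 in R-Het, and scaling by the median ratio gave Cox8a -0.043 in P-KO. Leaving out 1 mouse at a time moved Cox6a1 between -0.093 and 0.036, Cox8a between -0.026 and 0.080 and Cox6b2 between -0.22 and 0.12 in P-KO, and Cox6a1 between -0.071 and 0.040, Atp5md between -0.22 and 0.021, Ndufb2 between -0.059 and 0.21 and Cox4i2 between -0.074 and 0.38 in R-Het.

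Rescaling to the same sum left 64 of 79 members above 0 in P-KO and 71 below 0 in R-Het, and scaling by the median ratio 66 and 75. The isoform shares kept their direction with medians and without any 1 mouse. At this depth low genes such as Cox7b2 rest on few fragments.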
